A study of Mus musculus with 12 samples.

Results

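Ribosome footprints were compared between Eif4g2 knockout (KO) and wild-type (WT) organoids grown from mouse small intestine, in 4 of the 12 libraries of the series. These are the ribosome profiling libraries labelled Eif4g2-/- (2) and Eif4g2+/+ (2), chosen by assay and genotype alone. The remaining libraries are 2 ribosome profiling libraries of heterozygous (Het, Eif4g2+/-) organoids and 6 RNA-seq libraries of the same 3 genotypes. Organoids of every genotype spent 3 days in a medium that held Noggin, R-spondin-1 and epithelial growth factor, and received 4-OHT at 0.5 µM for 24 hours, so WT and KO share the drug. Any Cre driver, how the alleles were made and the age of the mice are not given in the sources used here. Each library carries a number that its RNA-seq counterpart shares, and nothing says whether different numbers mean separate mice, so the p-values measure the spread between these libraries, which may be technical.

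Ribosome profiling digests RNA that is not covered by a ribosome and sequences the protected fragments, the footprints. The number of footprints on a coding region rises with the amount of its mRNA, with how often ribosomes start on each mRNA, and with the time they take to cross the region. Eif4g2, also called DAP5, is a relative of the scaffold eIF4G1 that lacks the part that binds the cap-binding protein eIF4E, and it is known for initiation by routes other than the usual cap-dependent one. The title of the series names the initiation of histone modifiers as its interest.

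The deposited tables list transcripts by Ensembl transcript ID with a length and a count, and the reference tables used here pair no transcript ID with a gene. So no gene or cell type marker was looked up, and neither the tissue nor the loss of Eif4g2 was checked in these libraries. Regions are described by their coding length, which was read as a count of codons, by their footprint level and by the size of their change. Rows with the same counts in all 12 libraries were taken as 1 unit, and the longest row gave the unit its length. This gave 45864 units with a count, of which 33221 passed the filter on low counts in the footprint libraries. Isoforms that share only part of their reads remain as separate units: the 33221 fell into 20497 groups of neighbouring transcripts with near-proportional counts. Counts of units are therefore not counts of genes, and group numbers are given beside the main results.

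Over all units, the WT libraries Ribo_6026_WT and Ribo_6028_WT held 13527369 and 4828528 counts. The KO libraries Ribo_6070_homo and Ribo_6072_homo held 22546451 and 15883860, and the Het libraries Ribo_6136_hetero and Ribo_6139_hetero held 9613588 and 13298316. Pairs of values below keep this order. Both KO libraries were deeper than both WT libraries. Levels below are in CPM, counts per 1000000 counts of the library after TMM scaling, and changes are log2 ratios of KO to WT, so that 1 is a 2-fold rise and -1 a 2-fold fall. Footprint levels are shares of a library, and an equal change in all coding regions would not be seen. In organoids of mixed cell types, fewer cells of a type and fewer footprints per cell cannot be told apart.

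Footprints changed in both directions, and large changes were mostly losses. Of 33221 units, edgeR's quasi-likelihood test with Benjamini-Hochberg adjustment called 8518 (25.6%), of which 4721 were lower in KO (14.2% of those tested) and 3797 higher (11.4%). The called units came from 2906 groups with a fall and 2460 with a rise. The median change over all tested units was 0.00, with a 10th percentile of -0.68 and a 90th of 0.49. A called fall had a median of -0.73 and a called rise a median of 0.48. At 2-fold or more, 1637 units fell (4.93% of those tested, 1037 groups) and 452 rose (1.36%, 311 groups), so that 78.4% of the large changes were losses. At 4-fold or more, 365 fell and 43 rose. Among called units, 8469 (99.4%) had both KO libraries on 1 side of both WT libraries, and so did 61.6% of all tested units (31.0% with KO higher and 30.6% with KO lower).

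**Figure D1:**
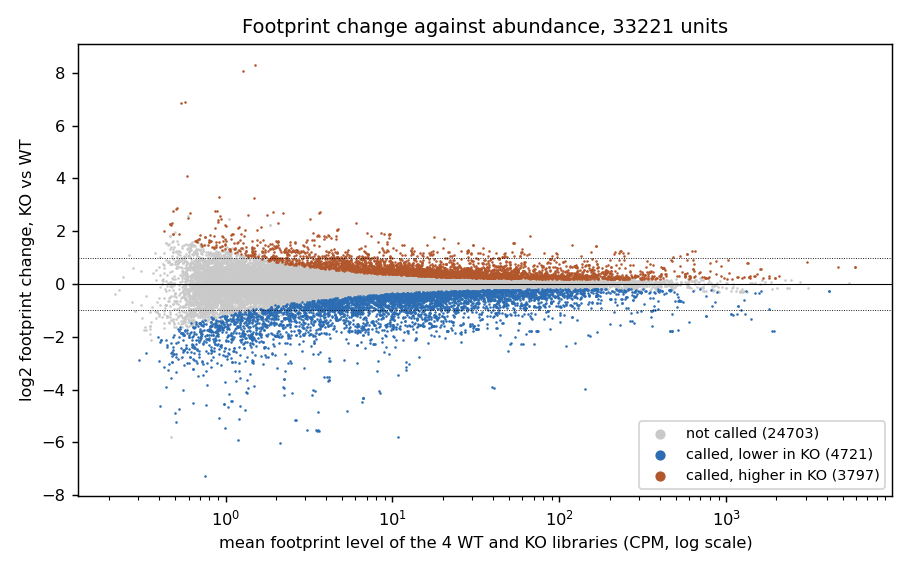
The log2 footprint change of KO against WT (vertical axis) is plotted for each tested unit against its mean level in the 4 WT and KO libraries in CPM (horizontal axis, log scale), with dotted lines at 2-fold. Called falls reach further from 0 than called rises, except for a few units near 1 CPM at the top, which include 4 with no footprint in WT.

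How many units were called depended on the tool and on single libraries. DESeq2 called 3632 units, 2364 lower and 1268 higher. Without Ribo_6026_WT or without Ribo_6070_homo, edgeR called fewer units, with ranges given at the end. In simulated counts where 200 of 33221 units changed 2-fold, edgeR made 170 true and 30 false calls (15% of its calls). This is above the share of 0.05 that the adjusted p threshold aims at, so the calls made here may also hold more false ones than that. The 200 units were drawn only from those above a minimum mean count. Where the threshold is exceeded, the false share depends on how many units change. The value of 15% therefore cannot be carried over to the 8518 calls.

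Falls and rises of small size were found on abundant regions, and those of large size on sparse ones. Of the 4721 falls, 1486 (31.5%) were under 0.5 in log2, and these had a median level of 29.8 CPM. Another 1598 (33.8%) lay between 0.5 and 1, at a median of 11.1 CPM. The 1272 falls between 2-fold and 4-fold had a median of 3.43 CPM, and the 365 of 4-fold or more a median of 1.19 CPM. Of the rises, 2050 (54.0%) were under 0.5 in log2 (median 31.6 CPM), 1295 (34.1%) between 0.5 and 1 (9.99 CPM), 409 (10.8%) between 1 and 2 (3.34 CPM) and 43 (1.13%) above that (0.991 CPM). A change had to be larger to be called where footprints were few: the median standard error of a log2 change was 0.50 under 1 CPM, 0.23 between 1 and 10 CPM, 0.10 between 10 and 100 CPM and 0.07 above.

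Long regions made up more of the small changes than of most larger ones, in both directions. Regions of 1000 codons or more were 3224 of the 33221 tested units, and those of up to 90 codons were 4163. The long regions made up 19.9%, 15.4%, 15.9% and 12.9% of the falls over the 4 sizes, from the smallest up. Each of these shares was above their share of all tested units. Among rises they made up 15.7%, 11.0% and 8.07% of the first 3 sizes and 6 of the 43 of 4-fold or more (14.0%). Short regions of up to 90 codons made up 5.07% of the smallest rises and 19.1% of the rises between 2-fold and 4-fold (78 of 409), and they were 5 of the 43 larger ones. Among falls, those short regions made up 3.23% of the smallest and 6.85% of the largest, below their share of all tested units at every size. Called falls had a median length of 437 codons, called rises 384 and units that were not called 254.

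The share of units called rose with coding length in both directions. It was 13.2% among 4163 units of up to 90 codons, 20.6% of 10798 from 91 to under 250 codons, 27.3% of 8036 from 250 to under 500, 32.1% of 7000 from 500 to under 1000, 38.0% of 2649 from 1000 to under 2000, and 49.7% of 575 from 2000 codons up. Longer regions also carried more footprints. The median level rose through the same 6 classes from 2.37 to 5.37, 9.22, 12.1, 18.3 and 33.6 CPM, and the median standard error fell from 0.28 to 0.09. The part of depth in the rise of calls with length was not tested by a model. At 10 to 100 CPM, where the standard error was 0.09 to 0.11 in every length class, the share called ran from 31.9% to 42.1%. At 1 to 10 CPM, with standard errors of 0.20 to 0.28, it ran from 9.90% in the shortest class to 60.0% in the longest. At 100 CPM and more, with 0.07 to 0.08, it was 53.4% in the shortest class, 31.0% in the next and 68.0% in the longest.

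The middle of the distribution hardly moved with length, whereas its lower tail did. The median log2 change was 0.05 for regions of up to 90 codons, 0.02, -0.01 and 0.00 in the next 3 classes, -0.05 from 1000 to under 2000 codons and -0.04 from 2000 codons. Per library, and relative to the WT mean, the median of the shortest class was 0.06 in both KO libraries and 0.01 and -0.01 in WT. In the class of 1000 to under 2000 codons it was -0.06 and -0.04 in KO and 0.00 in both WT libraries. The KO values lay outside those of WT in both classes, by less than 0.1 on the log2 scale, and Het at 1000 to under 2000 codons was at -0.02 and -0.06. From 2000 codons the libraries overlapped, with -0.03 and 0.00 in KO and 0.02 and -0.02 in WT. The 10th percentile fell from -0.57 in the shortest class to -0.85 at 1000 to under 2000 codons and -1.26 from 2000 codons, while the 90th went from 0.65 to 0.39 and 0.50. Across all tested units, length and log2 change had a Spearman correlation of -0.076, given as a description of units that share libraries and partly share reads.

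Losses outnumbered gains most among regions of 1000 to under 2000 codons. Their calls were 636 lower and 371 higher (63.2% lower), from 346 and 228 groups. Calls of up to 90 codons were 251 lower and 300 higher (45.6% lower). The 3 classes between them gave 1199 and 1028, 1203 and 994, and 1277 and 973, from 53.8% to 56.8% lower. From 2000 codons there were 155 falls and 131 rises (54.2% lower). With at least 10 counts in each library the shares of 250 to under 500 codons and of 2000 codons and more came to 49.9% and 49.6%, and without Ribo_6026_WT the latter was 49.5%, so neither class has a settled majority. DESeq2 gave 62.0% lower in the shortest class, against 45.6% by edgeR. Among changes of 2-fold or more the share of losses rose with every class, from 59.9% (124 of 207 calls) to 73.8%, 81.0%, 84.1%, 85.7% and 88.7% (63 losses and 8 gains from 2000 codons).

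**Figure D2:**
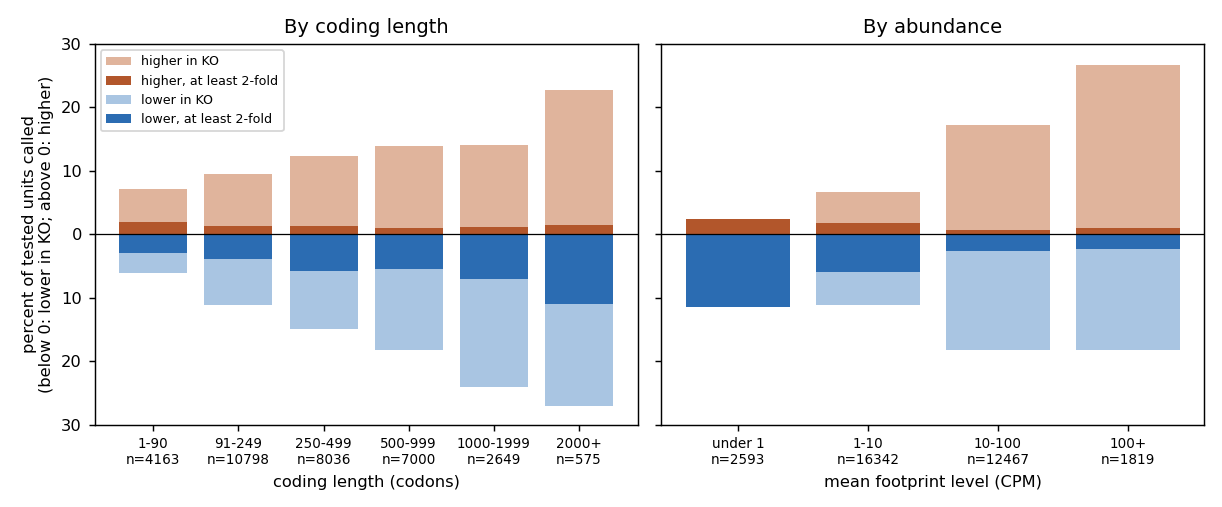
Bars give the percent of tested units called higher (above 0) or lower (below 0) in KO, by coding length in codons (left) and by mean footprint level in CPM (right), with the part of at least 2-fold in the darker shade and the number tested under each class. Calls grow with length in both directions, and with abundance the rises grow faster than the falls.

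Losses made up less of the calls as abundance rose. Under 1 CPM, 296 units were lower in KO and 62 higher (82.7% lower). Between 1 and 10 CPM, 1818 were lower and 1087 higher (62.6%). Calls were nearly even between 10 and 100 CPM, with 2275 lower and 2163 higher (51.3%), and this share ran from 47.1% to 62.2% over the alternatives other than a cut on size. At 100 CPM and more, 332 were lower and 485 higher (40.6% lower). The order of the 4 classes was the same when abundance was read from the Het libraries, which take no part in the change: 73.9%, 58.4%, 53.8% and 45.2% lower. A unit under 1 CPM passed the filter only where some libraries were above the minimum, which selects for units that differ. Without a filter, the share there was 81.9%. This does not settle the point, because a call at that level selects as well. In the main fit all 296 falls and 62 rises called there were of 2-fold or more. Among changes of 2-fold or more, the share of losses was 82.7%, 77.4%, 79.1% and 69.4% from the sparsest class up, a narrower range than across length.

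Length and abundance together set apart 3 classes of coding region. Among regions of 2000 codons and more, calls at 1 to 10 CPM were mostly falls (49 of 60) and calls at 100 CPM and more mostly rises (68 of 85). Among regions of up to 90 codons at 100 CPM and more, the falls came mainly from 1 stretch of neighbouring transcripts. These classes were chosen for description after their values had been seen, so their counts carry no test of their own.

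**Figure D3:**
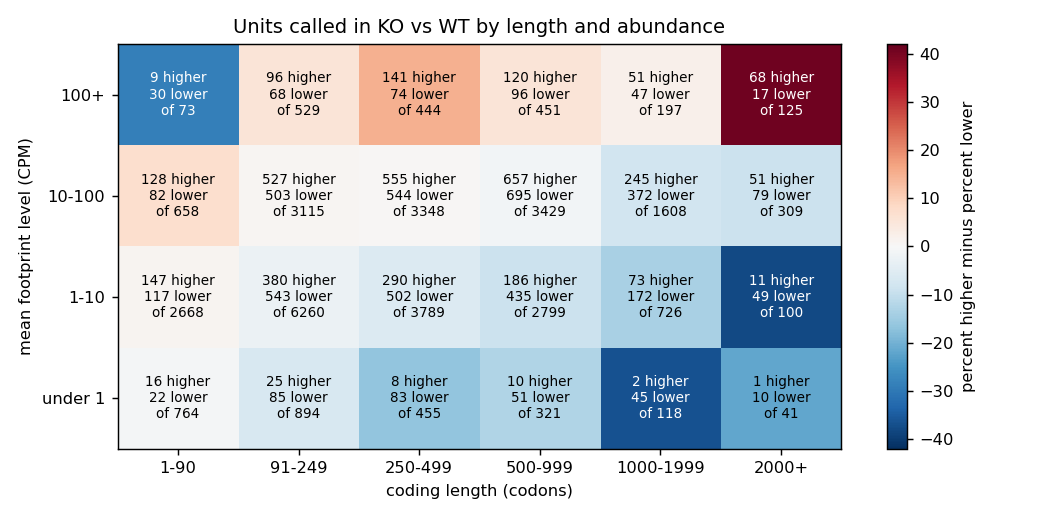
Each cell holds the units of 1 class of coding length (columns, codons) and mean footprint level (rows, CPM), with the number called higher and lower in KO and the number tested; the colour is the percent called higher minus the percent called lower. The 2000+ column goes from blue below 100 CPM to red above, where 68 of 125 units were higher.

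Giant regions with many footprints gained. Of 125 units of 2002 to 6865 codons at 100 CPM and more, 68 were called higher (54.4%, against 11.4% of all tested units). Another 17 were called lower (13.6%, against 14.2%). Units at 100 CPM and more over all lengths, with more calls in general, were higher in 26.7% and lower in 18.3%. The rises of giant regions came from 25 of the 57 stretches of neighbouring rows that hold the 125 units. Their falls came from 12, with at most 11 rising units in 1 stretch. As groups of near-proportional transcripts, 28 of 63 held a rise and 13 a fall. Gains were modest, with a median of 0.46 among called rises and a highest value of 0.84 over the class. Summed over the 125 units, footprints were 47840 and 45651 CPM in WT, 52349 and 54515 in KO, and 48796 and 44902 in Het. Both KO libraries were above both WT libraries and both Het libraries, and the ratio of KO to WT means was 1.14. A single unit of 3607 codons, at 2182 CPM in WT and 3909 in KO, gave 1727 of the summed gain of 6686 CPM.

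In RNA-seq, the direction for these giant, abundant regions depended on the measure. As CPM of all counts, without TMM scaling, their RNA summed to 64377 and 58510 in WT and 57639 and 58497 in KO, with Het at 51818 and 55311. The higher KO library lay only just below the lower WT library, and both Het libraries lay below both KO libraries. Taken per unit and after TMM scaling, however, the median RNA change was 0.18, close to the median footprint change of 0.19. Over units of all lengths at 100 CPM and more, the median RNA change was 0.22, with a footprint median of 0.03. An RNA median of this size was thus not particular to giant regions. Single giant units were called in both directions in RNA-seq, 23 higher and 18 lower of 125 tested. RNA-seq called 8.09% of its 12356 units higher and 9.33% lower, and over the units tested in both assays 8.23% and 8.70%. Of the 68 units with more footprints, 15 were also called higher in RNA-seq. Whether footprints and RNA differed in this set was not tested.

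Giant regions with few footprints lost. Of 100 units of 2000 codons and more at 1 to 10 CPM, 49 were called lower and 11 higher, from 29 and 9 of 66 stretches of neighbouring rows. All tested units gave 14.2% lower and 11.4% higher. Units of every length at 1 to 10 CPM gave 11.1% lower and 6.65% higher. Falls were thus more frequent here than in either set, whereas rises were about as frequent as over all tested units. The median change over the 100 units was -0.59, and the called falls had a median of -1.06. Median levels relative to WT were -0.66 and -0.58 in KO and -0.18 and -0.37 in Het, where the WT libraries were at -0.03 and 0.03. RNA-seq called 30 of 68 tested units lower and none higher, with a median of -0.88. DESeq2 called 24 lower and 1 higher, and after thinning all libraries to the smallest total, 24 were lower and 4 higher. Without Ribo_6026_WT, 25 were lower and 2 higher, and without Ribo_6070_homo 36 were lower and 3 higher.

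Sparse regions from 1000 codons, a set that includes the sparse giant ones, also fell more often than they rose. At 1000 to under 2000 codons and 1 to 10 CPM alone, 172 of 726 units were lower (23.7%) and 73 higher (10.1%). The median change there was -0.13, against -0.59 for the giant regions at that level. Among the 985 units of 1000 codons and more under 10 CPM, 276 were lower in KO (28%) and 87 higher (8.83%), spread over 140 and 50 of 426 stretches. Losses of 2-fold or more were called in 178 of them, from 92 stretches. Their footprints summed to 4457 and 4525 CPM in WT and 3948 and 3933 in KO, with Het between them at 4281 and 4157, without overlap between genotypes. Their RNA summed to 34695 and 35710 CPM in WT and 29016 and 29116 in KO, with Het at 31207 and 32384, again without overlap, and the RNA test called 100 of 589 units lower and 27 higher, with a median of -0.27. The ratio of KO to WT means was 0.877 in footprints. Regions under 1000 codons at the same levels gave 1838 falls (10.2%) and 1062 rises (5.92%) of 17950 units, and summed to 67447 and 67706 CPM in WT and 66331 and 65821 in KO. A sparse level means fewer footprints per codon on a long region than on a short one. When units were instead classed by CPM per 1000 codons, those under 1 gave 91% of calls lower from 1000 codons and 84.0% below that length. At 1 to 10 per 1000 codons the order turned, with 66.8% and 78.1%, so losses did not outweigh gains more on long regions at that density.

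Most called falls among short regions with many footprints lay in 1 stretch of neighbouring rows. Of 73 units of up to 90 codons at 100 CPM and more, 30 were lower in KO (41.1%) and 9 higher (12.3%). All tested units gave 14.2% and 11.4%, and units of every length at 100 CPM and more gave 18.3% and 26.7%. Among the 73 units, falls were called in 6 stretches. Of the 30, 20 lay in 1 of them, had 84 to 86 codons and all fell by 2-fold or more, from -1.02 to -2.36. The other 7 tested units of 57 to 107 codons in that stretch, outside this class by level or length, fell by 1.21 to 1.57 on the log2 scale, so all 27 tested units there were lower. Their counts are alike and they may be near-identical copies whose reads were split or counted more than once, so the number of separate losses is uncertain. The 20 units summed to 14711 and 14333 CPM in WT, 5539 and 6600 in KO, and 9651 and 10582 in Het. Het lay between WT and KO with no overlap, and KO was at 0.418 of WT. RNA for the 20 units was lower in KO in sum as well, at 469 and 300 CPM in WT against 77.0 and 102 in KO, with Het at 183 and 250, from 60 to 181 counts per library, and 8 of the 10 units tested in RNA-seq were called lower. The remaining 53 short, abundant units were called lower 10 times and higher 9 times, with none of the falls reaching 2-fold, and had a median change of 0.04. They summed to 11662 and 13276 CPM in WT and 10339 and 11157 in KO, a ratio of 0.862, with Het at 11894 and 11409, while their RNA summed to 2339 and 2447 CPM in WT and 2822 and 3086 in KO.

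**Figure D4:**
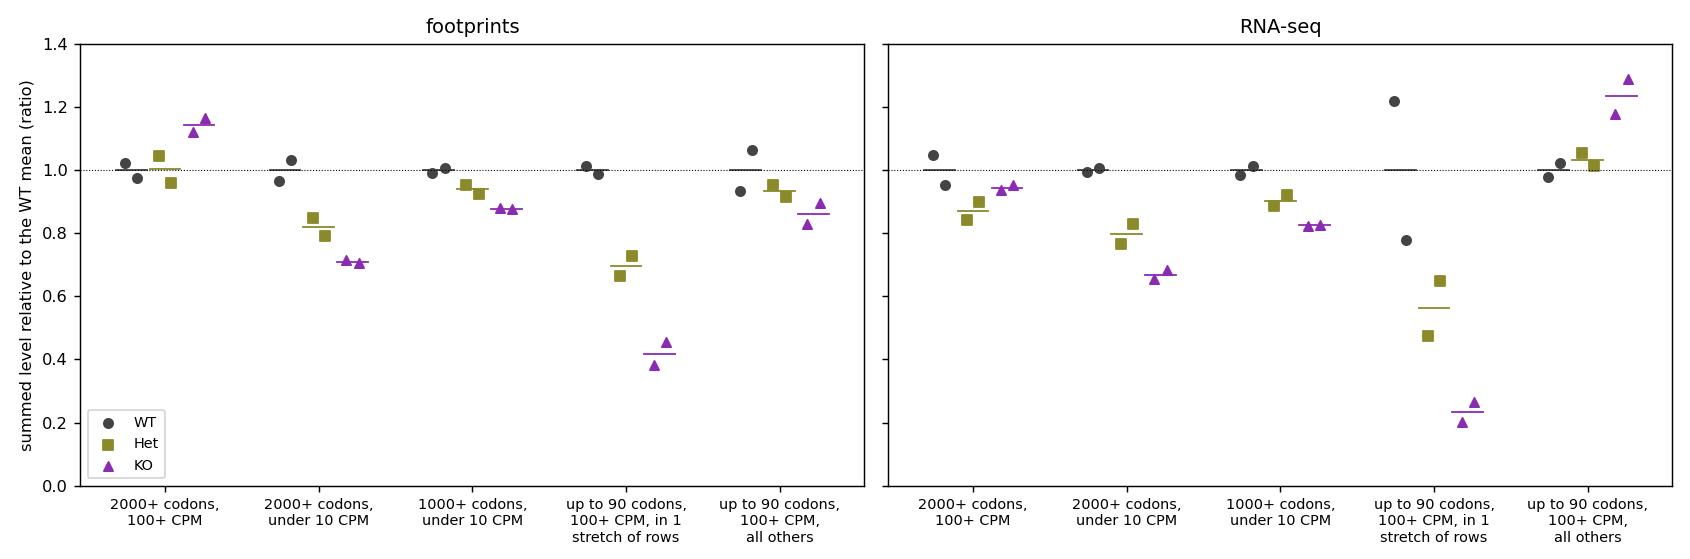
Points give each library's level summed over the units of 5 classes and divided by the WT mean (vertical axis, ratio), for footprints (left) and RNA-seq (right); bars are means of 2 libraries. Footprints of giant abundant regions are above WT in KO (ratio 1.14). Their RNA sums, which unlike the footprints lack TMM scaling, are not. The median RNA change per unit after that scaling was 0.18, against 0.22 over units of all lengths at 100 CPM and more. Sparse long regions are lowered in both assays, and the short stretch is lowest in KO (0.418 in footprints).

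This stretch carried most of the drop in the share of footprints on the shortest regions. Regions of up to 90 codons took 5.36% and 5.38% of footprints in WT and 4.38% and 4.48% in KO, with Het between them at 4.82% and 4.97%. Without the stretch, the values were 3.92% and 3.99% in WT, 3.83% and 3.84% in KO, and 3.88% and 3.93% in Het. The difference of KO from WT was thus -0.945 percentage points with the stretch and -0.121 without it, and the libraries did not overlap in either case. Regions of 1000 to under 2000 codons took 12.0% and 11.6% in WT and 12.5% in both KO libraries, and those of 2000 codons and more 6.13% and 5.77% in WT and 6.51% and 6.57% in KO. RNA-seq shares went the other way in these classes, from 21.9% and 21.5% in WT to 20.9% in both KO libraries, and from 13.3% and 12.7% to 12.0% and 12.1%. These are shares of summed counts, in which abundant units weigh most. The median change per unit did not differ in direction: -0.05 and -0.04 in footprints, and -0.06 and -0.05 over the units tested in RNA-seq. An exact two-sided permutation test gave p = 0.33 for the footprint shares of the shortest class and of the 2 longest, the smallest value that 2 libraries against 2 can give.

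Near-complete losses were rare and near-complete gains rarer. Of 19253 units with at least 5 CPM in both WT libraries, 14 (0.0727%), from 7 groups, had every KO library under 10% of every WT library. None of 19281 units with at least 5 CPM in both KO libraries had the reverse. The 14 lost units had 176 to 897 codons. WT libraries were between 5.07 and 77.7 CPM on them and KO libraries between 0.0876 and 5.25, from 2 to 120 counts. Het means lay between those of WT and KO in all 14, with single Het libraries from 0.211 to 54.8 CPM. The means can hide Het libraries that disagree: on ENSMUST00000198043.5, described below, 1 Het library lay below both KO libraries. Of the 2 that could be tested in RNA-seq, neither was called lower, and their median RNA change was 0.13.

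Transcript ENSMUST00000029504.9 had the deepest loss under the naming rule, which asks for a call, a mean of at least 50 counts and no overlap between WT and KO. Its 370 codons carried 324 and 89 footprints in WT, 9 and 6 in KO, and 63 and 92 in the Het libraries. In CPM, WT had 23.8 and 18.6, KO 0.394 and 0.383, and Het 6.63 and 6.89, between the others. The log2 change was -5.79 (SE 0.22, edgeR adjusted p = 1.73e-11), and the Het change against WT was -1.70 (edgeR adjusted p = 5.76e-06). No RNA-seq library held a count on it, so its RNA level was not detectable at this depth.

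Under the same rule, the deepest loss in another length class was on ENSMUST00000198043.5, with 564 codons. A unit of 91 to under 250 codons with a deeper fall, of -4.85, had too few counts for the rule. Footprints on ENSMUST00000198043.5 were 9.56 and 15.7 CPM in WT and 0.525 and 0.510 in KO, from 12 and 8 counts in KO. Its change was -4.45 (SE 0.59, edgeR adjusted p = 2.19e-05). The Het libraries disagreed, with 0.316 CPM in Ribo_6136_hetero, below both KO libraries, and 6.44 in Ribo_6139_hetero. This unit is 1 of 4 tested units in its group, and RNA-seq held 0 to 2 counts per library on it.

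The leading gains were smaller than the leading losses. ENSMUST00000133600.8 (387 codons) had 1.18 and 0.418 CPM in WT and 6.13 and 6.89 in KO, a change of 2.72 (SE 0.28, edgeR adjusted p = 1.55e-06). The WT values rest on 16 and 2 counts, and without Ribo_6026_WT the change was 3.92. ENSMUST00000109523.2 (193 codons) had 1.03 and 0.836 CPM in WT and 5.12 and 5.74 in KO, a change of 2.45 (SE 0.28, edgeR adjusted p = 4.54e-06). Het was at 1.68 and 1.8 CPM on the first and at 0.947 and 1.35 on the second, nearer to WT than to KO on both. All KO values of both lay above all WT and Het values.

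The naming rule was met by 3482 falls and 3472 rises, and their leaders differed in size in every length class. With 1 unit kept per group, the 10 deepest falls ran from -5.79 to -3.02 and the 10 largest rises from 2.72 to 1.76. The 10 falls had 182 to 897 codons and 6.63 to 143 CPM, and the 10 rises had 46 to 1591 codons and 3.18 to 66.5 CPM. By class and under this rule, the deepest fall was -2.36 for up to 90 codons, -3.14, -5.79 and -4.45 in the next 3, -2.91 from 1000 to under 2000 codons and -1.71 from 2000 codons. Units below the count minimum of the rule reached further, to -4.00 from 2000 codons at 1 to 10 CPM. The largest rises in the same order were 1.83, 2.45, 2.72, 1.94, 2.08 and 1.37. The largest rise from 2000 codons, on a region of 3025 codons, went from 5.96 and 4.81 CPM in WT to 13.8 and 15.5 in KO. The deepest fall there, on 2140 codons, went from a WT mean of 49.6 CPM to 14.5 and 15.8 in KO.

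Below the naming rule, 4 neighbouring units had footprints in KO and none in WT. The most counted, of 484 codons, had 67 and 48 counts in KO, 1 in each Het library and 0 in both WT libraries. Against a floor of 3 counts over both WT libraries, its level was at least 18.3-fold higher in KO, and that of the other 3 (432, 155 and 137 codons) at least 15.6-, 6.84- and 6.52-fold. The 4 lie within 6 rows of each other and may be 1 locus. In the other direction, 1 called unit of 110 codons had 18 and 8 counts in WT and none in KO, with Het at 13 and 16, at least 18.2-fold lower.

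The Het libraries disagreed with each other on part of the deepest losses, counted at a 4-fold gap after adding 0.5 CPM, with at least 1 CPM in the higher one. Of the 365 falls of 4-fold or more, Ribo_6136_hetero was at least 4-fold below Ribo_6139_hetero on 34 (9.32%, from 21 groups), and the reverse held on 8 (2.19%). Over all tested units these shares were 0.166% and 0.0873%. Of 1272 falls between 2-fold and 4-fold, 2 had Ribo_6136_hetero that far below and none the reverse, and none of the 452 rises of 2-fold or more had either. A share of the deepest losses thus lies on units that differed as strongly between 2 libraries of 1 genotype, and what else differed between those organoids was not tested.

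Among units that RNA-seq could test, its sign matched more often as the footprint change grew. Of 2188 called falls tested in RNA-seq, 1506 were lower there too, and RNA-seq called 471 lower and 111 higher. Over all 12158 units tested in both assays it called 8.70% lower and 8.23% higher. Of 987 falls under 0.5 in log2, 613 had the same sign and the median RNA change was -0.17. At 2-fold to 4-fold, 270 of 331 had the same sign, with a median of -0.92, and at 4-fold or more 29 of 33, with a median of -1.64. The part that RNA-seq could test shrank with size: 987 of 1486, then 331 of 1272 and 33 of 365. Whether the tested units stand for the rest was not tested. Of 1773 called rises tested, 1295 had the same sign, and RNA-seq called 308 higher and 36 lower. Those under 0.5 in log2 had a median RNA change of 0.29, and the 81 between 2-fold and 4-fold had 1.04. None of the 43 rises of 4-fold or more had enough RNA counts to be tested. The median change in Het followed the size too: it was -0.07, -0.12, -0.24 and -0.54 over the 4 size classes of falls, and 0.07, 0.16, 0.35 and 0.84 over those of rises. Both the KO and the Het changes are taken against the same WT libraries, so these values are not independent.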

How the data were processed

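The authors deposited raw counts per Ensembl transcript for each library, in tables of 278268 rows with no header. The submitters' processing notes name CASAVA 1.8, cutadapt 3.7, UMI-tools 1.1.2, STAR 2.7.0a and the build mm39. The counting rule, the annotation and any use of strand in counting are not given in the sources used here, so reads of overlapping or near-identical genes cannot be told apart. The other deposited column, a whole number from -9 to 35381, is not explained. It was read as coding length in codons, since most of its range fits proteins in amino acids. Values below 0 cannot be plain counts of codons, so lengths may be shifted, perhaps by end codons taken off. Such a shift would matter most for the shortest regions. Rows without it, or with 0 or less, held no counts.

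Units were tested with edgeR 4.0.16 in R 4.3.3, with filterByExpr, scaling by TMM, the quasi-likelihood test and Benjamini-Hochberg adjustment over all units. Calls were made at an adjusted p under 0.05. All 6 footprint libraries entered 1 fit with 3 residual degrees of freedom, in which Het only adds to the estimate of spread. RNA-seq was fitted likewise on 12356 units. The SE was taken from the F statistic and the log2 change. Stretches join units at most 25 counted rows apart. On simulated counts for 33221 units with 200 changed 2-fold, edgeR recovered 170, with 30 false calls (15% of calls, above the aim of 0.05). DESeq2 1.42.0 was an alternative.

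Length and abundance classes, lists and members were chosen with earlier results of these data known. The naming rule takes, in each direction, the most extreme unit and then the most extreme in another length class. The planned lists of genes and cell type markers needed symbols and were not used. Intervals and floors cover counting error only.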

Additional observations from a re-analysis of the deposited data

How the results depend on the processing

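Depth limits the sparse end: Ribo_6028_WT held the fewest counts, and changes under 1 CPM were called only when large. RLE factors moved 91 to under 250 codons to a median of 0.01 and 54.8% of calls lower, and the median of 250 to under 500 codons within -0.01. DESeq2 called 3632 units, 1268 higher and 2364 lower (65.1% lower), with 62.0%, 62.0%, 65.0%, 66.6% and 71.9% lower in the first 5 length classes, 93.7%, 80.7% and 62.2% in the first 3 abundance classes, medians of 0.01 and -0.01 in the classes of 91 to under 250 and 250 to under 500 codons, and 1 higher and 24 lower at 2000 codons and 1 to 10 CPM. Without a filter 52.6% of calls were lower, with 42.7%, 50.7%, 52.5%, 53.9% and 60.3% in the first 5 length classes, 58.7% and 47.1% at 1 to 10 and 10 to 100 CPM, and medians of 0.07, -0.01, -0.07 and -0.09 for up to 90, 250 to under 500, 1000 to under 2000 and 2000 codons and more. With at least 10 counts in each library 51.8% were lower, with 43.5%, 50.8%, 49.9%, 53.4%, 58.6% and 49.6% by length, 48.5% at 10 to 100 CPM, medians of 0.02, 0.01, 0.01, -0.02 and 0.02 in the length classes other than 91 to under 250, and 7 higher among 2000 codons at 1 to 10 CPM. Fitting only WT and KO gave 64.5% lower at 1000 to under 2000 codons and 79.0% under 1 CPM. Testing every row gave 43.0%, 52.6% and 53.2% in the first 3 length classes, 49.8% at 10 to 100 CPM and medians of 0.02 and 0.00 in the latter pair.

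Joining near-proportional transcripts gave 5114 calls, 2279 higher and 2835 lower, 60.4% and 59.1% lower in the 2 longest classes, a median of -0.01 at 250 to under 500 codons, 32 lower at 2000 codons and 1 to 10 CPM, 25 higher at 100 CPM and more, and 5 higher among short abundant units. Fewer units are tested there by construction. Thinning to 4828528 counts per library gave 4845 calls, 2033 higher and 2812 lower (58.0% lower), 47.6%, 56.7%, 57.2% and 60.8% in the first 4 length classes, 68.1% and 56.9% at 1 to 10 and 10 to 100 CPM, medians of 0.03, 0.01 and 0.00 for up to 90, 91 to under 250 and 2000 codons and more, and 4 higher and 24 lower at 2000 codons and 1 to 10 CPM. A cut at 2-fold left, by construction, 2089 calls, 452 higher and 1637 lower (78.4%), with 59.9%, 73.8%, 81.0%, 84.1%, 85.7% and 88.7% lower by length and 77.4%, 79.1% and 69.4% in the 3 upper abundance classes. It left 5 higher and 27 lower at 2000 codons and 1 to 10 CPM, 0 and 0 at 100 CPM and more, and 2 higher among short abundant units. Deciles of length put the longest 28.4 percentage points above the shortest in percent called, against 36.5 with fixed classes. Abundance from Het gave 73.9%, 58.4%, 53.8% and 45.2% lower. Counted per codon, the KO share of footprints rose by 0.487 points at 91 to under 250 codons and 0.265 at 500 to under 1000, where plain counts gave -0.465 and -0.205. Leaving out the stretch of short units left 10 falls among short abundant units. Other than where construction is named, the cause was not tested.

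Leaving out each WT and KO library in turn gave 4898 to 7552 calls, 2004 to 3286 higher and 2894 to 4266 lower, and 56.5% to 59.1% lower. By length class the share lower was 47.4% to 51.1%, 55.2% to 57.2%, 56.9% to 59.5%, 56.3% to 61.9%, 62.4% to 65.6% and 49.5% to 58.0%, and the median 0.04 to 0.07, 0.01 to 0.02, -0.01 to 0.00, -0.01 to 0.01, -0.06 to -0.04 and -0.07 to -0.01. By abundance class the share lower was 80.1% to 85.9%, 64.2% to 71.5%, 52.1% to 55.1% and 37.3% to 46.9%. Units of 2000 codons at 1 to 10 CPM were higher 2 to 8 times and lower 25 to 40 times, those at 100 CPM and more 50 to 63 and 9 to 13 times, and short abundant units 7 to 9 and 26 to 32 times. The lone sample of a genotype is then assumed to vary like the others. Apart from these ranges and the values without the stretch, 220 values under alternatives stayed the same, 100 moved and 2 changed sign. Medians were held to the spread between replicates and counts to within 1.5 times. Shares of calls and of units called were held to the spread of the fits that left out 1 library. Named transcripts were held to sign and call, and shares of footprints to sign alone. The 4 named transcripts kept sign and call wherever they were tested; none passed the filter of 10 counts in each library. No paired analysis was possible because WT and KO footprint libraries carry different organoid numbers. The alternatives by Het abundance, by shortest row and without the stretch were chosen after the data were seen.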
